A study of Mus musculus with 8 samples.

Results

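The alpha-tubulin genes Tuba1a, Tuba1b, Tuba1c, Tuba4a and Tuba8 and the beta-tubulin genes Tubb2a, Tubb2b, Tubb3, Tubb5 and Tubb6, 10 genes in all, were followed on 8 single-colour Agilent whole mouse genome arrays. The probes are every non-control probe whose accession belongs to one of these genes in RefSeq; no measured value entered this rule. This gave 15 of the 41174 non-control probes, for 9 of the 18842 named genes. No probe was matched to Tuba1b, which was not analysed here. All 15 probes were well above background on all 8 arrays and none was saturated, so none entered the tests only through a group in which it was bright.

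The cells were N31, neural progenitor cells (NPC) made from embryonic stem cells of the mouse, which ectopically expressed either the control protein EGFP or W20, and the series is about bacterial proteins and reprogramming. EGFP NPC and W20 NPC, with 2 arrays each, were grown in RHB basal medium with EGF and bFGF, each at 10 ng/ml. The 2 arrays each of EGFP at 72 h and W20 at 72 h came from cells 72 h after reprogramming was started: Dox at 40 ng/ml for 48 h in that medium, then Dox for 24 h in GMEM with 10% KSR, ACTH, sodium pyruvate, nonessential amino acids, 2-mercaptoethanol and LIF at 1000 U/ml. Which transgenes Dox switches on, whether N31 is 1 clone, and how W20 was delivered are not given in the sources used here. Nothing states that replicates were separate cultures, so the p-values take in only the scatter of the arrays, possibly technical.

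Alpha- and beta-tubulin form the heterodimer from which microtubules are built, and each is encoded by several genes, the isotypes, whose proteins are alike over most of their length and differ mainly in the C-terminal tail. Tubb5 and the Tuba1b and Tuba1c genes are broadly expressed, dividing cells included, Tuba1a, Tubb2a and Tubb2b are abundant in developing brain, and Tubb3 is a widely used marker of young neurons. Tuba4a encodes an alpha-tubulin without the final tyrosine that most others carry, Tuba8 is best known from testis and muscle, and Tubb6 is found in many non-neural cells.

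The sequence before the start of 4 genes is shown because Tuba1a, Tubb2a and Tubb3 rose together over the 72 h in both kinds of cells while Tuba8 fell. Each is the 250 bases before the RefSeq start on assembly GRCm38.p6, written 5′ to 3′ on the gene's own strand, with capitals for 4 short motifs found on either strand: the CCAAT box, the GC box spelled GGGCGG, the TATA box spelled TATAAA and the E-box spelled CANNTG.
Tuba1a: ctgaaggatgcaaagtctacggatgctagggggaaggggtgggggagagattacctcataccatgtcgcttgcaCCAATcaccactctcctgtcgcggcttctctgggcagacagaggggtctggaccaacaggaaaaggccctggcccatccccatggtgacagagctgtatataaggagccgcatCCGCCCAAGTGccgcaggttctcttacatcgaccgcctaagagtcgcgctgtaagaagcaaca
Tubb2a: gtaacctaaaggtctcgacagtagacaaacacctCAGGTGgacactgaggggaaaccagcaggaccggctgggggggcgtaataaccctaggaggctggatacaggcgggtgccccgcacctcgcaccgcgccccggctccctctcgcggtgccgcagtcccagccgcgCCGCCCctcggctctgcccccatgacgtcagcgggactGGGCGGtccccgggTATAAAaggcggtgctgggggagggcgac
Tubb3: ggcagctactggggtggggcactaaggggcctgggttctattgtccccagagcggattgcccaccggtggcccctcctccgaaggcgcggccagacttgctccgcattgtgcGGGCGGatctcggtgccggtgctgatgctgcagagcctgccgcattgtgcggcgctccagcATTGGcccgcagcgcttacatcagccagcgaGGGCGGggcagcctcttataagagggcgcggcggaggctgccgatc
Tuba8: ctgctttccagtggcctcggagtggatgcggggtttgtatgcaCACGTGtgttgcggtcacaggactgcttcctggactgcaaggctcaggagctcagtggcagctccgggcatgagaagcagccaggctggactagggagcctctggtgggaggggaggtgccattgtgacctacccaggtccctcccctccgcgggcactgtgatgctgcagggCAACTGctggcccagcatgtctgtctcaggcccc
Tuba1a (chr15:98953502-98953751, minus strand) holds 1 CCAAT box, 1 GC box and 1 E-box, and the last shares a base with the GC box. Tubb2a (chr13:34078009-34078258, minus strand) holds 2 GC boxes, 1 E-box and a TATA box that begins 29 bases before the start. Tubb3 (chr8:123411303-123411552, plus strand) holds 1 CCAAT box and 2 GC boxes, and Tuba8 (chr6:121210484-121210733, plus strand) holds 2 E-boxes and none of the other 3 motifs. Among 8 of the tubulin genes with a sequence in the RefSeq table, 4 windows held the CCAAT box, 5 the GC box, 1 the TATA box and 7 the E-box. Over 32851 RefSeq windows of the same length these motifs stood in 33.8%, 32.7%, 12.4% and 66.2%.

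An array's 75th percentile lay between 827 and 938 intensity units, and 57.05% to 62.41% of spots were well above background. A level below is the log2 of a probe's processed signal minus that percentile of its array, and a difference is in the same log2 units, ± the standard error (SE) of the limma fit with n = 2 arrays per group. "Rose" and "fell" are used for a Benjamini-Hochberg adjusted p under 0.05 over all 25727 probes tested. Levels are not compared between probes, whose sequences differ. Since isotypes share long stretches of coding sequence, a probe may also bind RNA of a relative; probe sequences were not used here, and this was not tested. All 4 NPC arrays lay on 1 slide and all 4 arrays at 72 h on another, so stage and slide cannot be told apart; within each slide the EGFP arrays held positions 1 and 2 and the W20 arrays 3 and 4, so W20 and position cannot be told apart either. In a bulk sample, fewer cells of a type and less RNA per cell cannot be told apart.

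**Figure D1:**
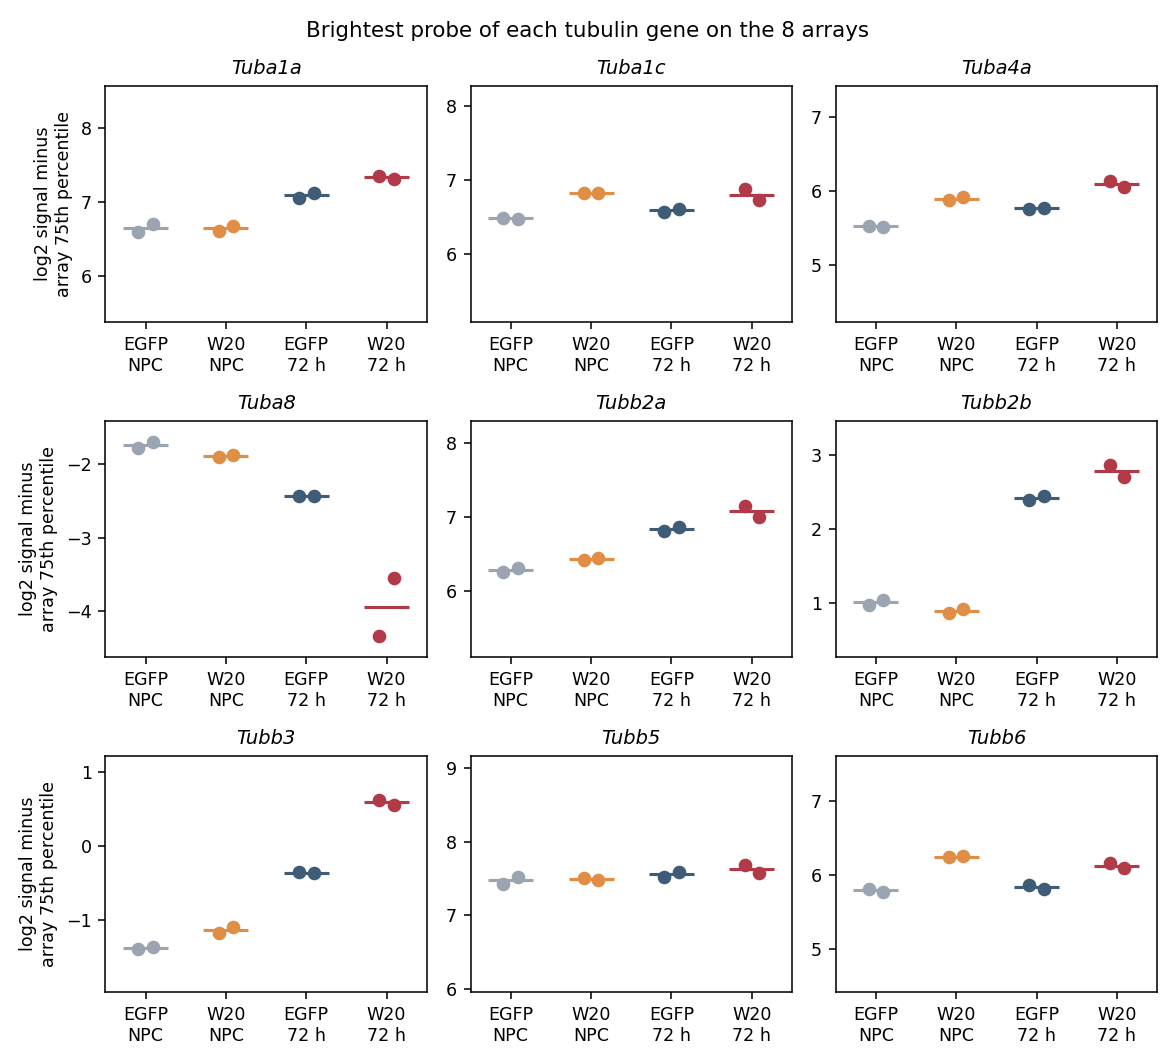
Level of the brightest probe of each of the 9 tubulin genes (y axis, log2 signal minus the array's 75th percentile) in the 4 groups (x axis). Points are arrays, lines are group means, and every panel spans the same number of log2 units. Tubb3 climbs from EGFP NPC to W20 at 72 h with no overlap between groups, Tuba8 drops to -4.33 and -3.55 in W20 at 72 h, and Tubb5 stays between 7.43 and 7.69.

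Over the 72 h the neural beta-tubulins Tubb2a, Tubb2b and Tubb3 rose in both kinds of cells, as did the alpha-tubulin Tuba1a, while Tuba8 fell in both. The brightest probe of 5 of 9 genes rose with EGFP and 1 fell, against 67.7% of 13619 genes called in either direction. With W20, 5 rose and 2 fell, against 73.2% called. Counted over probes, 9 of 15 rose and 2 fell with EGFP (63.4% of all probes called), and 9 rose and 4 fell with W20 (69.7% of all probes called). The medians over the 9 genes were 0.24 and 0.20, against 0.01 in either kind of cell over all genes. The shares called among tubulins lay near those of all genes, so the counts alone do not set the tubulins apart.

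Among the beta-tubulins, Tubb3 gave levels of -1.39 and -1.37 in EGFP NPC, -1.17 and -1.10 in W20 NPC, -0.35 and -0.37 in EGFP at 72 h, and 0.63 and 0.56 in W20 at 72 h. No group overlapped another, and the order ran from EGFP NPC through W20 NPC and EGFP at 72 h to W20 at 72 h. The change over 72 h was 1.02 ± 0.04 with EGFP (2.02-fold, adjusted p = 1.75e-05) and 1.73 ± 0.04 with W20 (3.32-fold, adjusted p = 2.07e-06). The Tubb3 probe is printed in 10 spots per array, which gives it a check that the other members lack. The SD over its spots on an array lay between 0.03 and 0.07, with 1 outlier spot left out on the second EGFP NPC array, and the lowest spot of either W20 array at 72 h, 0.51, was above the highest spot of either EGFP array at 72 h, -0.29.

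**Figure D2:**
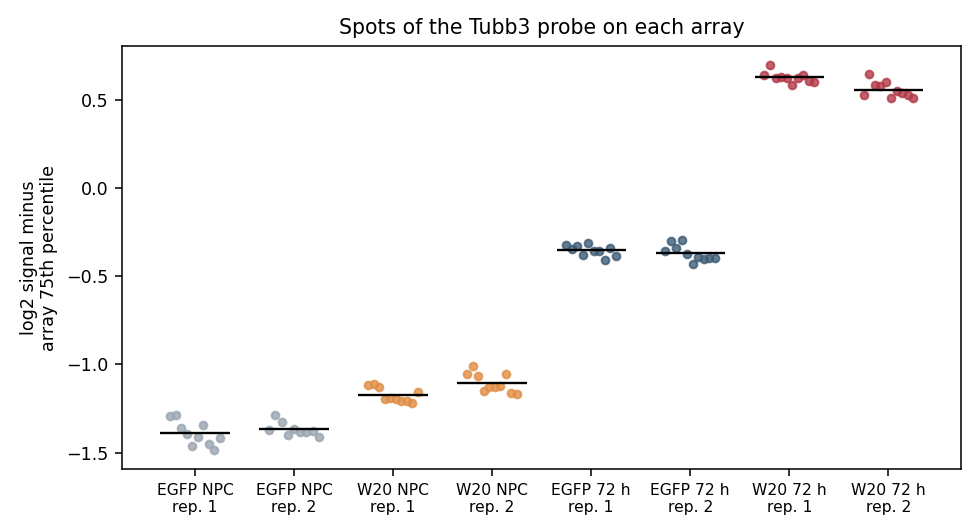
Level of each spot of the Tubb3 probe (y axis, log2 signal minus the array's 75th percentile) on each of the 8 arrays (x axis); points are spots and lines are array means. The spots of an array lie close together, and the 72 h arrays with W20 sit above all others.

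Tubb2b, the close relative of Tubb2a, gave levels of 0.97 and 1.04 in EGFP NPC, 0.86 and 0.91 in W20 NPC, 2.39 and 2.44 in EGFP at 72 h, and 2.86 and 2.70 in W20 at 72 h. The NPC groups lay close together, all 72 h arrays stood above them, and the W20 arrays at 72 h were highest. It rose by 1.42 ± 0.06 with EGFP (2.67-fold, adjusted p = 2.3e-05) and by 1.89 ± 0.06 with W20 (3.71-fold, adjusted p = 5.45e-06).

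Tubb2a was measured by 3 probes, and the size of its rise differed between them. The brightest, A_52_P621603, gave 6.25 and 6.31 in EGFP NPC, 6.42 and 6.44 in W20 NPC, 6.81 and 6.86 in EGFP at 72 h, and 7.15 and 7.001 in W20 at 72 h. A_51_P490023 gave 4.15 and 4.14, then 4.15 and 4.02, then 5.89 and 5.78, then 6.19 and 6.07 in the same order of groups. A_51_P103659 gave 1.51 and 1.52, 1.49 and 1.53, 2.47 and 2.42, and 2.72 and 2.63. All 3 probes placed both 72 h groups above both NPC groups. The rise with EGFP was 0.55 ± 0.06 on the brightest probe (adjusted p = 5.12e-04), 1.69 ± 0.07 on A_51_P490023 (adjusted p = 1.69e-05) and 0.93 ± 0.04 on A_51_P103659 (adjusted p = 2.95e-05), and with W20 it was 0.64, 2.04 and 1.17. The difference between probes was itself tested for every gene with several probes, as an added comparison over 6715 probe pairs. Set against the brightest probe, A_51_P490023 rose more by 1.14 with EGFP and 1.40 with W20, and A_51_P103659 by 0.37 and 0.53, and all 4 passed the test. Of all pairs, 29.1% passed for the change with EGFP and 36.8% with W20, so disagreement between probes of 1 gene was common on these arrays.

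Tubb5, the main beta-tubulin of dividing cells, gave 7.43 and 7.52 in EGFP NPC, 7.50 and 7.48 in W20 NPC, 7.52 and 7.59 in EGFP at 72 h, and 7.69 and 7.58 in W20 at 72 h on its brightest probe. Neighbouring groups overlapped or nearly did. Its change over 72 h was 0.08 ± 0.06 with EGFP (95% interval -0.06 to 0.22, adjusted p = 0.252) and 0.14 ± 0.06 with W20 (interval from just under 0 to 0.28, adjusted p = 0.0698). The other Tubb5 probe, A_52_P163796, at 6.96 and 7.03, 7.04 and 7.05, 7.16 and 7.18, and 7.31 and 7.23, rose by 0.17 (adjusted p = 0.0185) and 0.23 (adjusted p = 0.00564). The first of these calls ended with array 1 of EGFP NPC left out (adjusted p = 0.0902) or with either EGFP array at 72 h left out (0.059 and 0.0806), with spike-in scaling (0.0573) and without the filter on dim probes (0.0542). Tubb6 gave 5.81 and 5.77 in EGFP NPC, 6.24 and 6.25 in W20 NPC, 5.87 and 5.81 in EGFP at 72 h, and 6.16 and 6.09 in W20 at 72 h. Its levels followed the transgene rather than the stage: 0.05 ± 0.04 over 72 h with EGFP (adjusted p = 0.329) and -0.12 ± 0.04 with W20 (adjusted p = 0.0409). The call with W20 ended in 12 of 19 alternatives (values from -0.15 to -0.09), most fits with 1 array left out among them. It also ended with normexp correction (adjusted p = 0.173), median scaling (0.181) and spike-in scaling (0.218). The same held without the filter on dim probes (0.11) and with only the arrays of the comparison (0.0847).

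Among the alpha-tubulins, Tuba1a gave 6.59 and 6.70 in EGFP NPC, 6.61 and 6.68 in W20 NPC, 7.06 and 7.12 in EGFP at 72 h, and 7.36 and 7.31 in W20 at 72 h. The NPC groups overlapped, and the 72 h groups stood above them without overlap. The rise was 0.45 ± 0.05 with EGFP (adjusted p = 8.35e-04) and 0.69 ± 0.05 with W20 (adjusted p = 1.12e-04).

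Tuba8 was the member with the widest range of group means, and the only gene whose brightest probe fell over the 72 h in both kinds of cells. It gave -1.78 and -1.71 in EGFP NPC, -1.91 and -1.88 in W20 NPC, -2.44 and -2.43 in EGFP at 72 h, and -4.33 and -3.55 in W20 at 72 h. The last pair differed from each other more than the arrays of any other group did, which widens the error of every Tuba8 comparison. It fell by 2.04 ± 0.24 with W20 (4.12-fold, adjusted p = 6.28e-04) and by 0.69 ± 0.24 with EGFP (adjusted p = 0.0483), and the latter call ended when any 1 NPC array or EGFP array at 72 h was left out (adjusted p from 0.0765 to 0.155), with spike-in scaling (0.0737) and without the filter on dim probes (0.0914). In intensity units the signal was 256 and 267 in EGFP NPC and 41.1 and 70.8 in W20 at 72 h, where the lowest signals called well above background were 20.03 and 25.15. Close to that limit the size depends on the background: with normexp correction the fall with W20 was 1.27.

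Tuba1c and Tuba4a changed little or in a probe-dependent way. The brightest Tuba1c probe, A_52_P479099, gave 6.49 and 6.48 in EGFP NPC, 6.82 and 6.82 in W20 NPC, 6.57 and 6.61 in EGFP at 72 h, and 6.88 and 6.73 in W20 at 72 h, with changes over 72 h of 0.11 (adjusted p = 0.137) and -0.01 (adjusted p = 0.825). A_52_P503809 gave 4.34 and 4.35, 4.54 and 4.55, 4.84 and 4.87, and 5.10 and 4.996, and rose by 0.51 and 0.50 (adjusted p = 2.47e-04 and 1.96e-04); the differences between these probes, 0.40 and 0.52, passed the test. The brightest Tuba4a probe, A_52_P676271, gave 5.53 and 5.51 in EGFP NPC, 5.87 and 5.92 in W20 NPC, 5.76 and 5.76 in EGFP at 72 h, and 6.13 and 6.06 in W20 at 72 h, and rose by 0.24 with EGFP (adjusted p = 0.0029) and 0.20 with W20 (adjusted p = 0.00535, and 0.0501 with spike-in scaling). The dimmer Tuba4a probes went the other way. A_51_P514300, at 1.19 and 1.18, 2.17 and 2.23, 1.02 and 0.98, and 1.89 and 1.83, fell by 0.18 with EGFP (adjusted p = 0.0105) and 0.34 with W20 (adjusted p = 7.21e-04), and its EGFP call ended with the second EGFP array at 72 h left out (adjusted p = 0.0572) and with normexp correction (0.0519), median scaling (0.107) or spike-in scaling (0.107). A_52_P409498, at 0.24 and 0.11, 1.22 and 1.24, 0.05 and 0.04, and 0.98 and 0.89, changed by -0.13 with EGFP (adjusted p = 0.0894) and fell by 0.29 with W20 (adjusted p = 0.00469). Averaging the probes of a gene instead of leading with the brightest turned the Tuba4a change with EGFP to -0.024 and with W20 to -0.15, and the Tuba1c change with W20 to 0.24, so no single direction over 72 h is given for these genes.

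**Figure D3:**
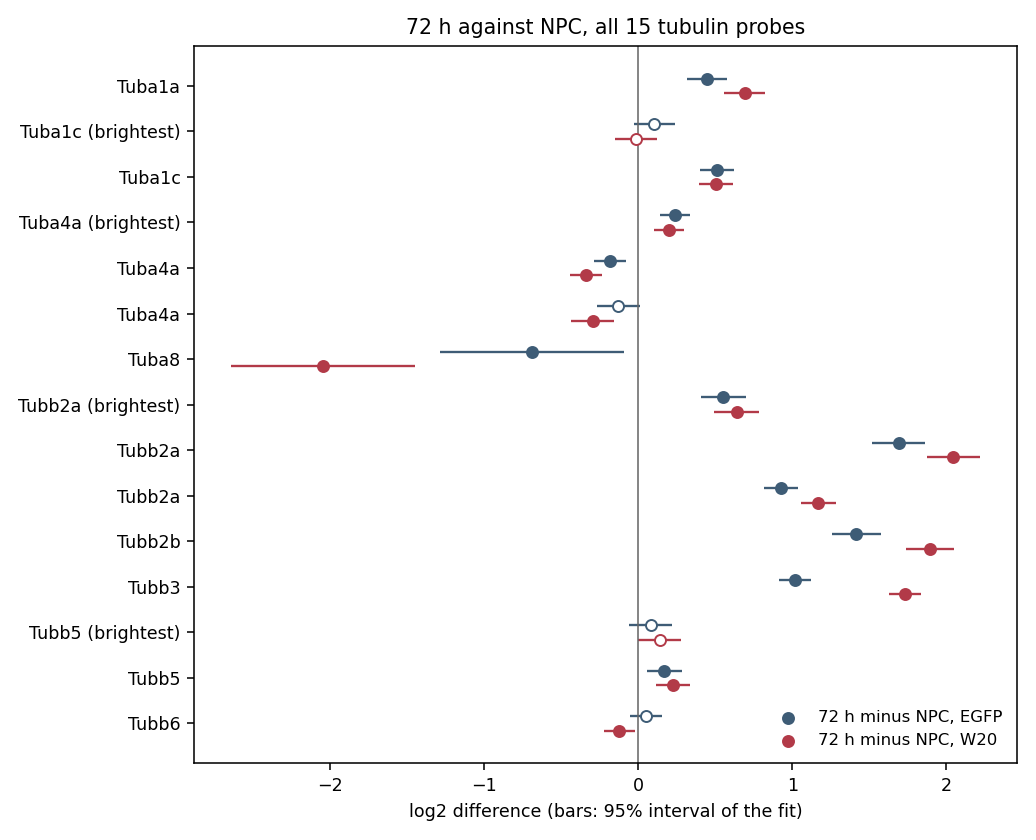
Log2 difference between 72 h and NPC (x axis) for the 15 tubulin probes (y axis), in EGFP and in W20 cells; bars are 95% intervals of the fit, and filled points passed an adjusted p of 0.05. The probes of Tubb2a, Tubb2b and Tubb3 lie well to the right, Tuba8 lies to the left, and the probes of Tuba4a stand on both sides of 0.

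In NPC that expressed W20, Tubb6, Tuba4a, Tuba1c and Tubb3 were higher than in EGFP NPC, and no tubulin probe was lower. The brightest probe of 4 of 9 genes was higher and none lower, against 51.6% of all genes called, and 7 of 15 probes were higher, against 45.8% of all probes called. The median over the 9 genes was 0.15, against 0.04 over all genes. Tubb6 rose by 0.46 ± 0.04 (1.37-fold, adjusted p = 8.42e-04), Tuba1c by 0.34 ± 0.05 (adjusted p = 0.0048) and Tubb3 by 0.24 ± 0.04 (1.18-fold, adjusted p = 0.00659). In each of these genes both W20 arrays stood above both EGFP arrays. The sizes depend in part on scaling: with quantile scaling Tubb6 was 0.28 higher, and with scaling to spike-in spots the Tubb3 call ended (0.22, adjusted p = 0.0636).

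The W20 effect on Tuba4a in NPC depended on the probe. A_51_P514300 was higher by 1.02 ± 0.04 (2.02-fold, adjusted p = 1.58e-04) and A_52_P409498 by 1.06 ± 0.06 (2.08-fold, adjusted p = 2.45e-04), against 0.37 ± 0.04 on the brightest probe (adjusted p = 0.00125). The excess of the dimmer probes over the brightest, 0.64 and 0.68, passed the test of the difference between probes (adjusted p = 0.00171 and 0.00192), as 16.4% of all pairs did. All 3 probes gave the same direction. The second Tuba1c probe rose by 0.20 (adjusted p = 0.0142), a call that ended when any 1 NPC array was left out (adjusted p from 0.055 to 0.0701) and with spike-in scaling (0.0802).

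The brightest probes of Tuba1a, Tubb2a, Tubb2b, Tubb5 and Tuba8 did not pass the test of W20 against EGFP in NPC. The 95% interval of Tuba1a was -0.13 to 0.13 (adjusted p = 0.994). Tubb2a differed by 0.15 (0.01 to 0.30, adjusted p = 0.0845), Tubb2b by -0.12 (-0.27 to 0.04, adjusted p = 0.189), Tubb5 by 0.02 (-0.12 to 0.16, adjusted p = 0.83) and Tuba8 by -0.15 (-0.74 to 0.45, adjusted p = 0.649). The interval of Tuba8 is the widest of these.

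At 72 h, 7 of 9 genes were higher with W20 than with EGFP on their brightest probe, Tuba8 was lower, and Tubb5 was not called, against 49% of all genes called. Of the 15 probes 12 were higher and 1 lower, against 42.5% of all probes called, and the median over the 9 genes was 0.24, against 0.03 over all genes. Tubb3 was higher by 0.95 ± 0.04 (1.94-fold, adjusted p = 1.57e-04), and Tuba8 differed by -1.503 ± 0.24 (2.84-fold lower, adjusted p = 0.0055). With normexp correction the Tuba8 difference was -0.83. The dimmer Tuba4a probes were higher by 0.86 and 0.89 (adjusted p = 1.89e-04 and 3.43e-04) and the brightest by 0.33 (adjusted p = 0.00204). Their excess of 0.53 and 0.56 over the brightest passed the test between probes, which 4.27% of all pairs did.

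Tubb2b was higher by 0.36 ± 0.06 (adjusted p = 0.00755) and Tubb6 by 0.29 ± 0.04 (adjusted p = 0.00399) in W20 cells at 72 h. Smaller differences were seen for Tuba1a (0.24 ± 0.05, adjusted p = 0.0158), Tuba1c (0.22 ± 0.05, adjusted p = 0.0237) and Tubb2a (0.24 ± 0.06, adjusted p = 0.023; 0.29 and 0.23 on its other probes, adjusted p = 0.0203 and 0.0102). These small calls are the least firm. For Tuba1a the call ended with the first EGFP array (adjusted p = 0.0792) or the first W20 array (0.0703) at 72 h left out. For Tuba1c and for the brightest Tubb2a probe it ended with either EGFP array or the first W20 array at 72 h left out (adjusted p from 0.0564 to 0.104 and from 0.0619 to 0.105). The second Tuba1c probe, higher by 0.20 (adjusted p = 0.0176), lost its call in the same cases (adjusted p from 0.0542 to 0.0838). Of the other Tubb2a probes, A_51_P490023 lost it without the second EGFP array (0.0964) or the first W20 array (0.0852) at 72 h, and A_51_P103659 without the second EGFP array (0.0572). Scaling to spike-in spots left 6 of the 15 probes called at 72 h, against 21.41% of all probes, and also ended the Tubb6 call (adjusted p = 0.0655). Quantile scaling ended the calls of Tuba1a (0.09, adjusted p = 0.255), Tuba1c (0.09, adjusted p = 0.0706) and Tubb2a (0.13, adjusted p = 0.0505). Tubb5 differed by 0.07 ± 0.06 (95% interval -0.07 to 0.21, adjusted p = 0.331).

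**Figure D4:**
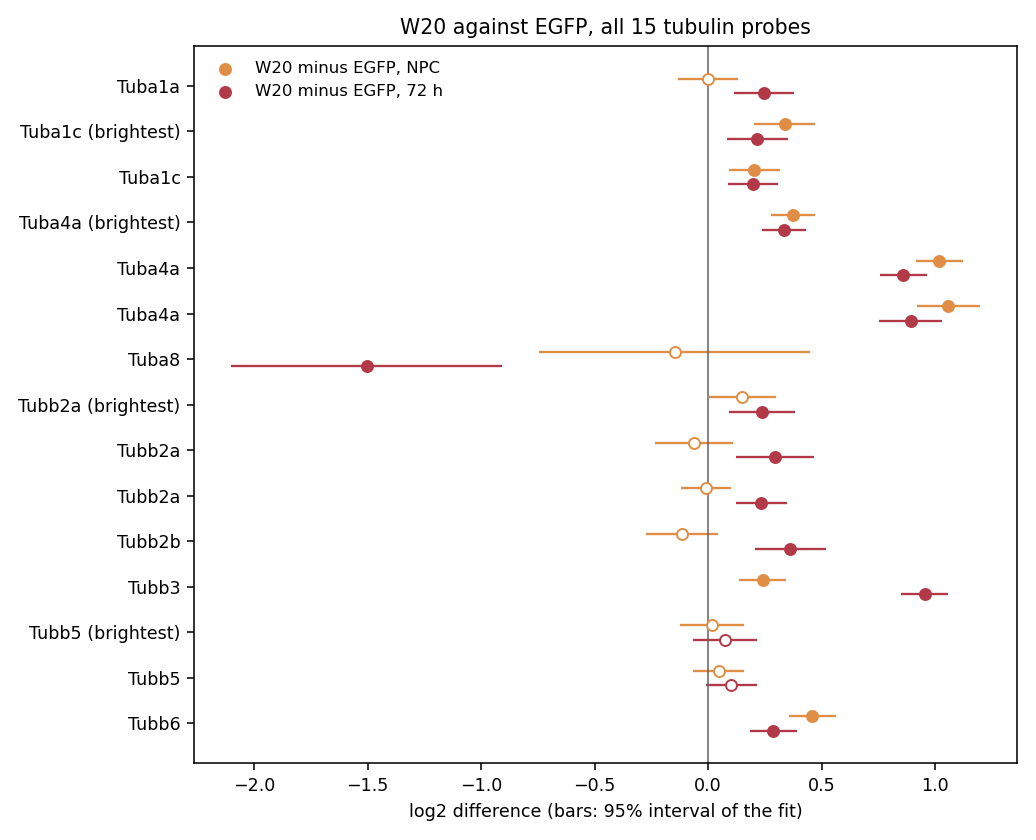
Log2 difference between W20 and EGFP cells (x axis) for the 15 tubulin probes (y axis), in NPC and at 72 h; bars are 95% intervals of the fit, and filled points passed an adjusted p of 0.05. Tubb3 moves from 0.24 in NPC to 0.95 at 72 h and Tuba8 from -0.15 to -1.503, while Tuba4a, Tuba1c and Tubb6 are higher with W20 at both stages.

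Whether the W20 effect differed between the stages was tested directly. It differed for 3 of 9 genes on the brightest probe, with 2 more positive and 1 more negative at 72 h, against 25.9% of all genes called, and for 4 of 15 probes, against 21.9% of all probes called. The W20 effect on Tubb3 was larger at 72 h by 0.71 ± 0.06 (adjusted p = 0.00176). Tubb3 kept this call under each of the 18 alternatives run, which include leaving out each array, with values of 0.67 to 0.75 (highest adjusted p = 0.0118). For Tubb2b the difference was 0.48 ± 0.09 (adjusted p = 0.0182), and the call ended when the second EGFP NPC array, either W20 NPC array or either EGFP array at 72 h was left out (adjusted p from 0.0502 to 0.0661) and without the filter on dim probes (0.0547). For Tuba8 it was -1.36 ± 0.34 (adjusted p = 0.0413), and -0.71 with normexp correction. That call ended when any 1 NPC array or EGFP array at 72 h was left out (adjusted p from 0.102 to 0.112), with spike-in scaling (0.0798) and without the filter on dim probes (0.0941). The Tubb2a probe A_51_P103659, at 0.24 ± 0.06 (adjusted p = 0.0464), lost its call with any 1 array except the second W20 array at 72 h left out (adjusted p from 0.0907 to 0.133), and with 5 of the other settings as well (0.0681 to 0.251). For Tuba4a, Tuba1c and Tubb6 the differences on the brightest probe were -0.04, -0.12 and -0.17 and did not pass (adjusted p = 0.638, 0.315 and 0.0929), with 95% intervals of -0.18 to 0.10, -0.31 to 0.07 and -0.32 to -0.03.

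Markers of other cells moved beside these results. Of 10 neural progenitor markers, 8 were well above background on all 8 arrays, among them Nes, Sox2, Pax6 and Vim, and their summed linear level, in multiples of the array's 75th percentile, lay between 127 and 155 on all arrays. Vim, with the highest level of the list in every group (6.88 to 7.08), weighs most in that sum. Of 11 neuron markers 3 were well above background on all 8 arrays (Map2, Nefl and Stmn2) and 3 on none (Syp, Snap25 and Nefm). Their summed level was 1.77 to 1.98 in NPC, 5.82 and 6.19 in EGFP at 72 h and 7.37 and 7.91 in W20 at 72 h. Stmn2, with the highest levels of the list at 72 h (1.85 with EGFP and 2.12 with W20), weighs most in that sum there. Of 6 neuron markers tested, 4 rose over 72 h with EGFP and 5 with W20, and none fell. The shares of all genes called were 67.7% and 73.2%. Gap43 and Elavl3, which rose in both, entered the tests only through 72 h groups. In EGFP NPC and W20 NPC they lay at background (-7.56 and -6.75 for Gap43, -6.94 and -6.64 for Elavl3), so the filter favoured their rise. With W20, 2 were higher in NPC and 3 at 72 h, against 51.6% and 49% of all genes called. Map2 was lower with W20 in NPC (-0.98), where Tubb3 was higher. The part of these markers in the Tubb3 result was not tested. Of 8 mesenchymal markers 6 were well above background on all 8 arrays, with a summed level of 148 and 168 in EGFP NPC, 102 and 99.1 in W20 NPC, 135 and 138 in EGFP at 72 h, and 89.5 and 92.3 in W20 at 72 h. Col1a2, with the highest level of the list in every group (6.34 to 7.05), weighs most in that sum. All 8 markers fell with W20 in NPC and 7 at 72 h, against 51.6% and 49% of all genes called. Lum entered the tests only through EGFP NPC (-4.44) and lay at background in W20 NPC (-7.39), so the filter favoured its fall. Postn was well above background on 6 arrays and lay at -5.15 in W20 at 72 h. These falls stood beside the rise of Tubb6 and Tuba4a, and the part of these markers was not tested. Of 6 testis and muscle markers, listed for Tuba8, 3 were well above background on all 8 arrays, while Myog and Ckm, which define muscle, were so on none. The summed level was 0.65 and 0.68 in EGFP NPC, 0.47 and 0.49 in W20 NPC, 1.44 and 1.38 in EGFP at 72 h, and 0.53 and 0.52 in W20 at 72 h. The sum was lower with W20 at both stages and higher at 72 h than in NPC with EGFP, while Tuba8 was lower with W20 at 72 h and lower at 72 h than in NPC. Of 4 such markers tested, Tnnt3 and Acta1 were lower with W20 in NPC (-0.79 and -1.08) and at 72 h (-2.27 and -1.75). Prm1 and Tnp1 were called with W20 at neither stage. The part of these markers in the Tuba8 result was not tested.

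The 5 non-member genes with the pattern most like that of Tuba8 were Trim30d, Mylk, Zfp57, Uba7 and Tmem14a. Their root mean square difference from Tuba8 over the 8 arrays, after each gene's own mean was subtracted, was 0.21 to 0.24 log2 units among 12146 genes well above background on all arrays. Group means about a gene's own mean are given in the order EGFP NPC, W20 NPC, EGFP at 72 h and W20 at 72 h. They were 0.76, 0.61, 0.07 and -1.43 for Tuba8 and 0.84, 0.61, -0.17 and -1.28 for Trim30d, the closest gene. Those of Mylk, the myosin light chain kinase, were 0.64, 0.84, -0.12 and -1.36, with W20 NPC above EGFP NPC, unlike Tuba8.

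The counts of the pathway lists below are over the brightest probe of each gene and are read against the shares of all genes called: 51.6% with W20 in NPC, 49% with W20 at 72 h, 67.7% over 72 h with EGFP and 73.2% over 72 h with W20. The W20 calls depend on scaling in the lists as in all probes: scaled to spike-in spots, 25.76% of all probes were called in NPC and 21.41% at 72 h. Of 10 other tubulin genes listed, 7 had a probe and were tested. Over 72 h 5 rose and 2 fell with EGFP, and 4 rose and 2 fell with W20. With W20, 4 were higher and 1 lower in NPC, and 4 were higher at 72 h, with a median there of 0.19 against 0.03 over all genes; spike-in scaling left 1 of those 4. Tubb4b, another beta-tubulin of many tissues, rose by 0.67 with EGFP and 0.60 with W20 over 72 h, and was 0.31 higher with W20 at 72 h. Tubd1, or delta-tubulin, rose by 0.55 and Tubg2, a gamma-tubulin, fell by 0.29 over 72 h with EGFP. Tube1, the centriolar epsilon-tubulin, was 0.28 higher with W20 at 72 h, a call that ended with spike-in scaling (adjusted p = 0.083). Its fall of 0.17 over 72 h with EGFP was no longer called with normexp correction (adjusted p = 0.139), median scaling (0.156) or spike-in scaling (0.17), or without the first EGFP NPC array (0.0578) or the second EGFP array at 72 h (0.0586).

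Tubulin folding involves the chaperonin CCT, prefoldin and the tubulin cofactors. Of 21 genes tested, 12 were higher and 4 lower with W20 in NPC, and 12 were higher and 2 lower at 72 h, with medians of 0.14 and 0.17 against 0.04 and 0.03 over all genes. With spike-in scaling 6 were higher and 1 lower in NPC, and at 72 h 5 were higher. The prefoldin subunit Pfdn2 (0.35) and the CCT subunit Cct7 (0.33) had the largest rise at 72 h. The cofactor Tbcc (-0.17) and the regulator of cofactors Arl2 (-0.15) were lower, but neither passed with arrays scaled to their medians (adjusted p = 0.134 and 0.123) or spike-in spots (0.103 and 0.139), or with either EGFP array or the second W20 array at 72 h left out (from 0.0574 to 0.155); that of Tbcc also ended with any 1 NPC array left out (0.0604 to 0.0641) and without the filter on dim probes (0.0612), and that of Arl2 with normexp correction (0.084). Over 72 h with EGFP, 9 rose and 4 fell. Cct3 rose by 0.62 and Cct7 by 0.47. Tbcd fell by 0.22 and Arl2 by 0.21, both calls that ended with spike-in scaling (0.0845 and 0.0624).

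Tubulin is modified after it is made, by acetylation, glutamylation and the removal or return of its final tyrosine. Of 13 genes tested in this list, 6 were higher and 3 lower with W20 in NPC, 4 were higher and 8 lower with W20 at 72 h, and 2 rose and 8 fell over 72 h in each kind of cell. With spike-in scaling 1 was higher and 2 were lower with W20 at 72 h. Over 72 h with EGFP, 2 rose and 6 fell with that scaling, against 51.18% of all probes called. Atat1, the alpha-tubulin acetyltransferase, and Ttll5, a glutamylase, were lower with W20 at 72 h (-0.37 and -0.32). The W20 effect on Ttll5 was 0.31 in NPC, where spike-in scaling ended the call (adjusted p = 0.0562), and differed between the stages by -0.63 (adjusted p = 0.0018). Ttll4, another glutamylase, was higher by 0.50 with W20 at 72 h. Ttll1 was higher by 0.18, a call that ended with normexp correction (0.0528), median scaling (0.08) and spike-in scaling (0.196), and with either EGFP array or the first W20 array at 72 h left out (0.0629 to 0.118). Over 72 h with EGFP, Vash2, a tubulin carboxypeptidase, fell by 0.88 and Atat1 by 0.87, while Ttll4 rose by 0.69 and Ttl, the tubulin tyrosine ligase, by 0.23.

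The gamma-tubulin ring complex nucleates microtubules. Of its 11 genes 5 were higher and 2 lower with W20 in NPC, and spike-in scaling left 1 in each direction. At 72 h Tubg1 was higher (0.19) and 10 were not called. Tubg1 was not called with arrays scaled to their medians (adjusted p = 0.058) or spike-in spots (0.218), or with either EGFP array or the first W20 array at 72 h left out (0.0513 to 0.0599). Over 72 h with EGFP, 2 rose and 2 fell. Tubgcp4 rose by 0.28 (0.15 with normexp correction) and Mzt2 fell by 0.37. The rise of Tubg1 by 0.15 and the fall of Cdk5rap2 by 0.20 were not called with spike-in scaling (0.128 and 0.134), without the second EGFP NPC array (0.0813 and 0.0597) or without the first EGFP array at 72 h (0.0715 and 0.0622). The rise of Tubg1 was also not called without the second EGFP array at 72 h (0.0577), without the filter on dim probes (0.0548), or with normexp correction (0.0989) or quantile scaling (0.117).

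Among microtubule-associated proteins and stathmins, 18 of 22 were tested, and 9 rose and 4 fell over 72 h with EGFP, 10 and 2 with W20. Stmn2, a stathmin of growing neurites that also stands among the neuron markers, rose by 3.11 with EGFP and 3.38 with W20, and Clip1, which binds growing plus ends, by 1.27 and 0.69. Map1a and Map4 fell by 0.26 and 0.23 with EGFP, and both calls ended with spike-in scaling (adjusted p = 0.0884 and 0.0942). That of Map1a also ended without the filter on dim probes (0.0574) and without the second EGFP NPC array (0.118) or the first EGFP array at 72 h (0.115). With W20, 5 were higher and 4 lower in NPC, and 6 were higher and 1 lower at 72 h. Dclk1, a doublecortin-like kinase and the gene lower at 72 h (-0.68), was the only one of these 7 still called with spike-in scaling. Map1b (0.40) and Map6 (0.32) had the largest rise at 72 h, which spike-in scaling no longer called (0.095 and 0.0515), nor Map1b without the first EGFP array (0.0968) or the second W20 array (0.0544) at 72 h. Map2, the dendrite protein, was lower with W20 in NPC (-0.98, adjusted p = 7.87e-04) and was not called at 72 h (0.18, adjusted p = 0.154). These W20 effects differed by 1.15 (adjusted p = 0.0032). Of the severing and depolymerising proteins, the severing enzyme Spast rose by 0.42 and the depolymerising kinesin Kif2a fell by 0.39 over 72 h with EGFP. The kinesin Kif2c was 0.22 higher with W20 at 72 h, a call that ended with spike-in scaling (0.26) and with either EGFP array at 72 h left out (0.0726 and 0.0814). In a fit of only the 4 arrays compared, the W20 calls at 72 h of Tbcc (adjusted p = 0.108), Arl2 (0.0732), Ttll1 (0.0866), Map1b (0.0726) and Kif2c (0.0748) and the Map1a call over 72 h with EGFP (0.0581) ended too.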

How the data were processed

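Total RNA of 8 samples was labelled with Cy3 and hybridised, per the labels. The deposited scanner files hold spot intensity values, per the file headers written by Agilent Feature Extraction 10.7.3.1; the processed signal used here is already corrected for background. Other columns used are the deposited flags for outliers, saturation and signal well above background. The authors' deposited value table holds log2 values with centring unstated. Its 4 NPC columns equalled their own arrays within 0.01 for 100% of probes after shifts of 0.07 to 0.08, with medians of -3.82 to -3.73. Its 72 h columns, with medians of -3.91 to -3.77, did not match their own arrays (4.13% to 14.1% of probes), and those of replicate 1 equalled the averaged NPC columns with the same transgene. It was tried as an alternative for the W20 effect in NPC and nowhere else.

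The signals were taken as log2 minus the array's 75th percentile, outlier spots were left out and the spots of a probe averaged. Of 41174 probes, 27584 had an accession in the RefSeq gene table of GRCm38.p6. A probe was tested if both arrays of 1 or more groups had it well above background. A gene was led by its brightest probe over the 8 arrays; all probes of the members, and of each list the 2 called genes with the largest rise and the 2 with the largest fall, are named, as well as a few others chosen after their values were seen: Map2, Ttll5 in NPC and the markers. One gene of the severing list is not reported here, so that list has no counts, and its least stable calls are left out. limma 3.58.1 under R 4.3.3 fitted the 4 group means on all 8 arrays (4 residual and 1.56 prior degrees of freedom), with two-sided p-values adjusted by Benjamini-Hochberg. The scripts were tested on simulated data. The members and gene lists were chosen with earlier results of these data known. Replicates of a group correlated at 0.998 or more over probes. Normexp correction used median spot signals. Alternatives covered background, scaling, filters, variance model, probe choice, a replicate block and leaving out each array.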

Additional observations from a re-analysis of the deposited data

Results flagged for a closer look

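For 4 tubulin probes the effect of W20 differed between NPC and 72 h by the test of the difference itself. The difference was 0.71 for Tubb3, 0.48 for Tubb2b, 0.24 for the Tubb2a probe A_51_P103659 and -1.36 for Tuba8, all in log2 units and as 72 h minus NPC. Of all probes 21.9% gave such calls, and the stages lay on separate slides.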

How the results depend on the processing

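Of the 15 probes, 7, 13, 11, 13 and 4 passed for W20 in NPC, W20 at 72 h, the change with EGFP, the change with W20 and the difference of the W20 effects. With 1 probe per gene, which leaves 9 probes, the first 4 counts were 4, 8, 6 and 7. At 72 h the count was 6 with spike-in scaling and 8 with only the arrays of the comparison. The share of all probes called moved as well, from 42.48% to 21.41% and 31.52%. For the difference of effects it was 2 with spike-in scaling, 1 without the filter on dim probes and 7 with an intensity trend and robust fit. The share of all probes called was 8.458%, 7.075% and 27.41% there, against 21.86% in the main fit. Where 1 array was left out, the lone array left in its group is assumed to vary like the others. The causes were not tested. Spike-in scaling moved the share of higher calls among all probes at 72 h from 54.92% to 38.76%, and testing without the filter moved it to 72.91%. The mean of a gene's probes turned the change of Tuba4a to -0.024 with EGFP and -0.15 with W20, and that of Tuba1c with W20 to 0.24; among other genes, normexp correction turned the change of Stmn4 with EGFP to -0.084, and quantile scaling the W20 effects in NPC of Tuba3a to -0.017 and of Cct2 to -0.011. The replicate numbers do not pair samples (correlations of replicate differences from -0.11 to 0.13). A replicate block gave 7, 13, 11, 13 and 4 calls. In NPC alone it gave 3 (14.22% of all probes called), or 5 with the numbers crossed (32.17%), both added after seeing the data. A slide block could not be fitted beside the group means. Over all members' results and settings, 1267 kept their call, 101 lost it, 24 gained it and 3 reversed. Precision is limited by 2 arrays per group and, for Tuba8 in W20 at 72 h, by signal near background.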

Other observations

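Measured in the same way as for Tuba8, and chosen after its values were seen, the genes with the pattern most like that of Tubb3 were Galnt12, Trim36, Dpf1, Krt17 and Isl2, with root mean square differences of 0.07 to 0.12 log2 units over the 8 arrays.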
